A study of Homo sapiens with 4 samples.

Results

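The genes described here encode the machinery that tethers, primes and fuses synaptic vesicles. They were chosen by gene symbol, with earlier results of these data known, and comprise 39 of the 64252 Ensembl genes in the count table, all of which matched an ID. The RNA came from SK-N-BE(2) cells, a long-established human line grown from a neuroblastoma with amplified MYCN. The control cells carried a scramble short hairpin RNA (shScb) and the other cells a hairpin against TTC8 (shTTC8), with 2 libraries in each group and no other treatment named in the labels. TTC8 encodes a subunit of the BBSome, a complex that moves membrane proteins in and out of cilia. The sources used here do not give the number of hairpins, and an effect of losing TTC8 and an off-target effect of a hairpin cannot be told apart. Nothing in the labels ties the libraries of a group to separate cultures, so the p-values reflect spread among these samples alone, and that spread could be technical.

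In regulated exocytosis, vesicles loaded with transmitter or hormone are docked at the plasma membrane by active zone scaffolds, primed by UNC13 and CAPS proteins, and fused by the SNARE proteins. The SNARE bundle is formed by SNAP25, syntaxin-1 and synaptobrevin (VAMP). Complexins clamp the partly assembled bundle, synaptotagmins trigger fusion when calcium enters, and NSF with its SNAP adaptors takes the spent bundle apart. Sympathetic neurons and chromaffin cells, the relatives of neuroblastoma cells, use this machinery for small vesicles and for the dense-core granules that hold catecholamines.

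Total counts ran from 38284663 to 55331449 per library, the shTTC8 libraries being the shallower. TTC8 had 9888 and 10398 counts in shScb and 1130 and 1268 in shTTC8, so the labels hold for the targeted gene. All 8 markers of sympathetic neuroblasts were detected, with summed levels of 3237 to 3417 CPM (counts scaled to a common library size) in shScb and 2686 to 2751 CPM in shTTC8, and 6 of them were lower and 1 higher in shTTC8. Of the 5 fibroblast markers all were lower, from a summed 438 to 455 CPM in shScb to 198 to 206 CPM in shTTC8. Glial markers summed to between 5.39 and 6.74 CPM in all libraries, with SOX10 at 0, and endothelial markers to at most 1.66 CPM, with PECAM1 at 0. Markers of blood and epithelium, with HBB at 0, summed to 21.6 to 22.4 CPM in shScb and 8.33 to 8.44 CPM in shTTC8. The part of these markers in the results below was not tested. In bulk RNA, fewer cells of a type and less RNA per cell cannot be told apart.

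Of the 39 genes, 35 had enough counts to be tested. By edgeR's quasi-likelihood test at an adjusted p of 0.05, 17 were higher in shTTC8, 8 were lower and 10 were not called. Over all 19610 genes tested, 15.2% were called higher and 16.7% lower, together 31.9%. Calls are more frequent among well expressed genes. Among protein-coding genes with a mean of at least 10 CPM, 21.8% were higher and 24.4% lower (46.2% together), and of the 27 vesicle genes above that level 16 were higher and 7 lower. The median log2 fold change of the 35 tested genes was 0.34, against 0.0035 for all genes tested. In 29 of the 35 the libraries of the groups did not overlap, as was so for 65.5% of all genes tested. Summed over the 39 genes, shScb had 1464 ± 5.55 CPM and shTTC8 had 1919 ± 48.3 CPM (SD, n = 2). Without CPLX2, the most abundant of them, the sums were 1223 ± 2.95 and 1428 ± 33.8 CPM. The summed values were not tested.

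**Figure D1:**
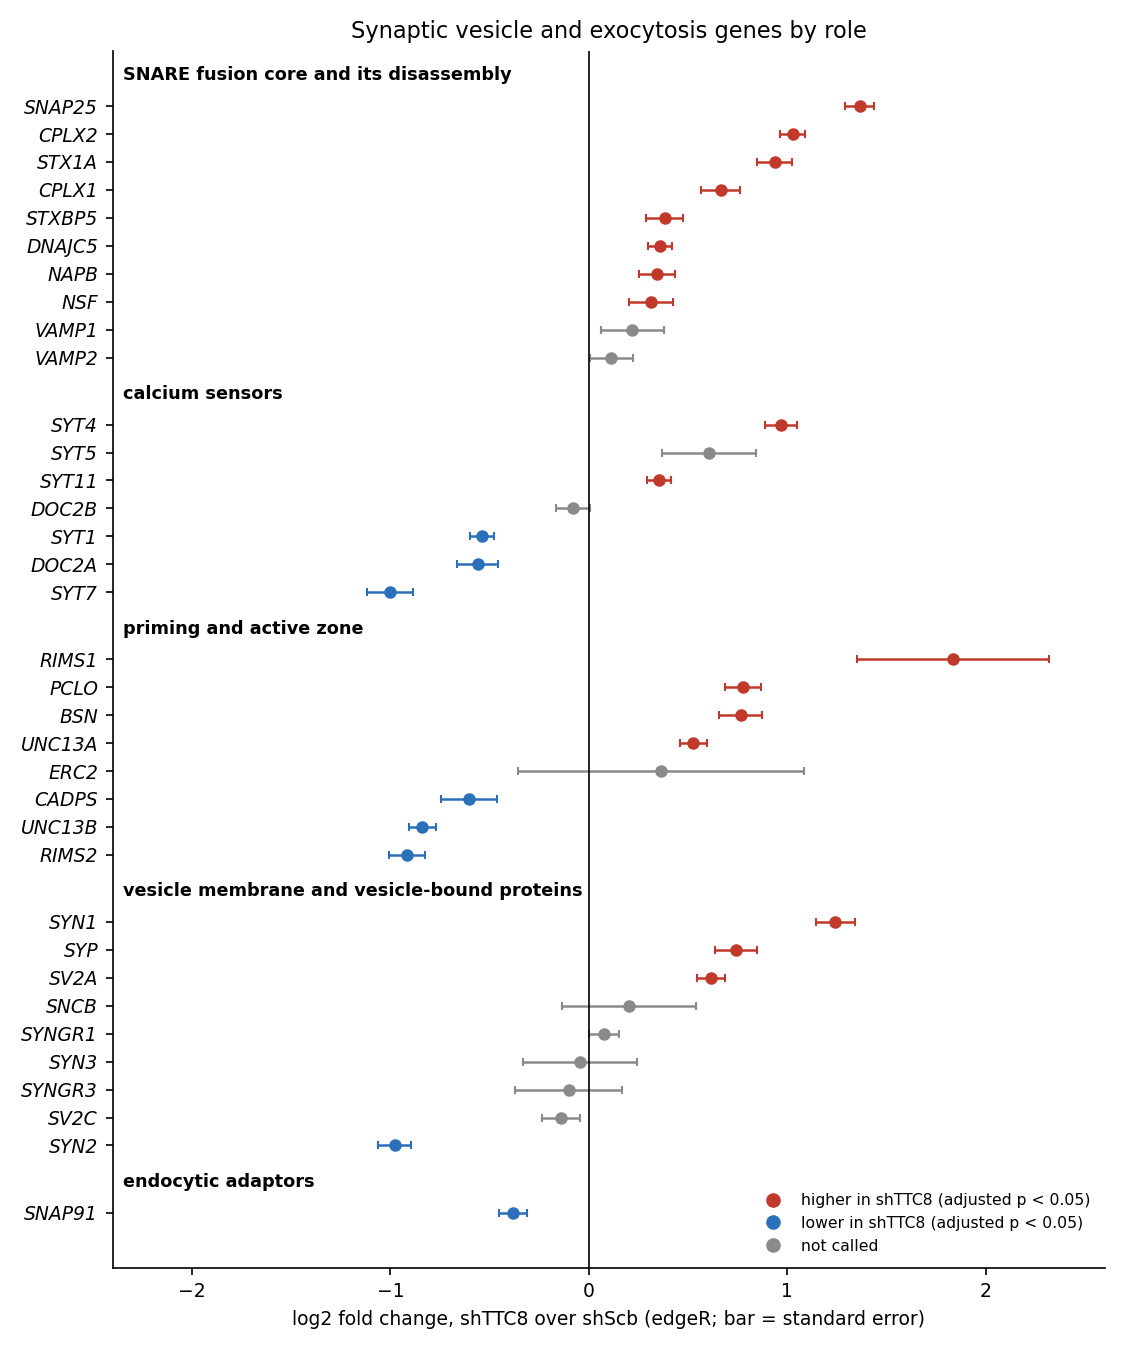
Log2 fold change of shTTC8 over shScb for the 35 tested genes, by role; points are edgeR estimates, bars are standard errors, and colour gives the call at an adjusted p of 0.05. All 10 genes of the fusion core lie right of 0. The group labelled calcium sensors (synaptotagmin and DOC2 genes), priming factors and vesicle proteins lie on both sides.

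**Figure D2:**
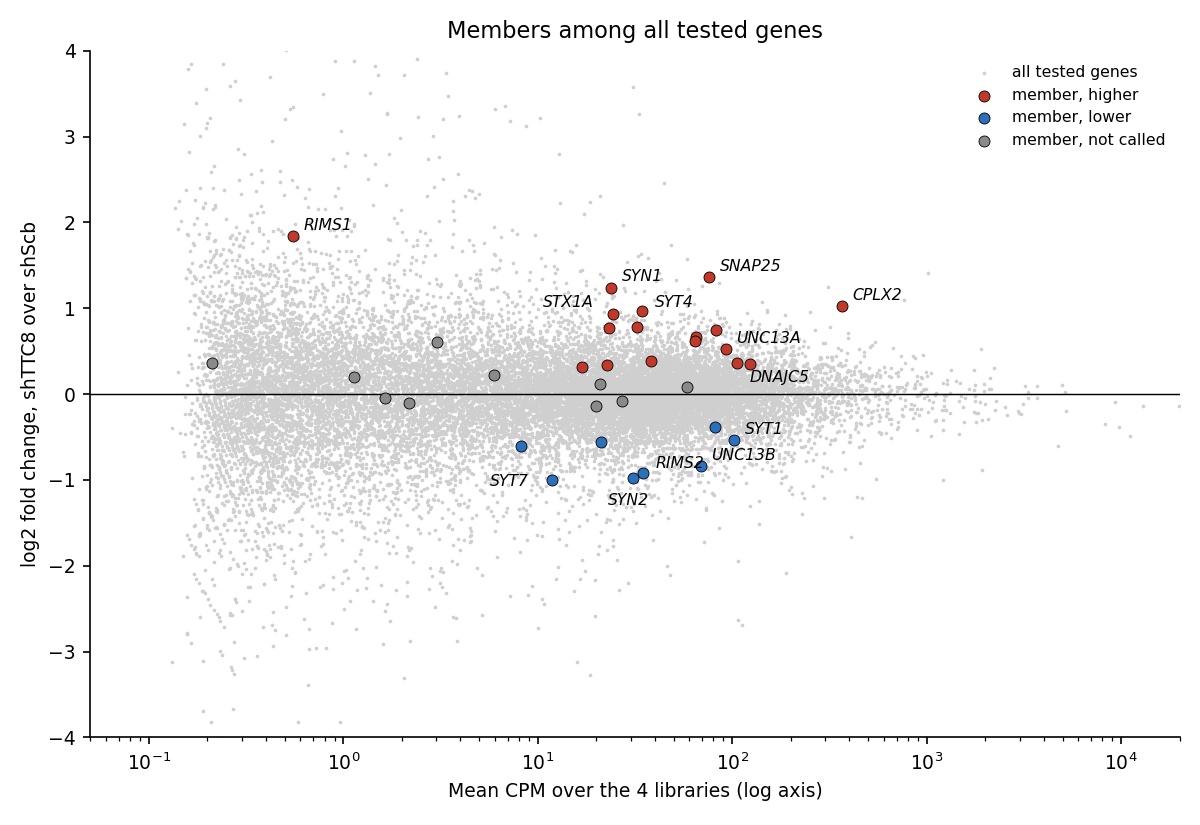
Mean CPM over the 4 libraries (log axis) against log2 fold change for all tested genes (light points) and the 35 vesicle genes (coloured by call); 50 genes lie outside the axes. RIMS1, SNAP25, SYN1 and CPLX2 lie more than 1 above the zero line, and SYT7, SYN2 and RIMS2 are the lowest.

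Promoter sequences are shown for SYN1, SYT4, UNC13A and SV2C, which are among those that carry letters of RE1, the element through which the repressor REST is known to silence neuronal genes. SYN1 is a textbook target. SYN1, SYT4 and UNC13A rose in shTTC8 and SV2C was not called. Whether RE1 or REST had a part in these changes was not tested. RefSeq promoters (GRCh38.p14, 250 bases before to 50 after each annotated start) were found for 30 of the 39 genes, in 43 entries. SNAP25, CPLX1, SYT7, DOC2A, DOC2B, RIMS2, CADPS2, SYN3 and SYNGR3 had no entry. Both strands were searched. The stretch of the SYN1 promoter at chrX:47619944-47620107, minus strand, is printed 5′ to 3′ on the gene's strand, with the match to the RE1 consensus and the cAMP response element TGACGTCA in capitals. In the other genes, capitals mark the left arm of RE1 (TCAGCACC, or GGTGCTGA on the opposite strand) and, in UNC13A, also the right arm (GGACAG, here CTGTCC). The UNC13A arms lie further apart than those of the RE1 consensus, which its promoter did not match. The windows are chr18:43277554-43277583 (minus strand) for SYT4, chr19:17688341-17688370 (minus strand) for UNC13A and chr5:76083151-76083180 (plus strand) for SV2C.
SYN1: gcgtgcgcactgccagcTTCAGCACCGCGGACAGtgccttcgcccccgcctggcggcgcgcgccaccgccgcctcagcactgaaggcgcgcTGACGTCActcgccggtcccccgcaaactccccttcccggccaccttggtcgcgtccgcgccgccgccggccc
SYT4: ggaggggggcaGGTGCTGAtttcagccctg
UNC13A: gtcaggcgCTGTCCgcgcccccGGTGCTGA
SV2C: gcagcagcgccTCAGCACCgcgacttgccg

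The full RE1 consensus of 17 letters matched 1 of the 43 entries, that of SYN1, and 24 of all 35116 promoter entries (0.0683%). Its left arm alone was present in 6 of the 43 entries (14%), against 1.67% of all entries. SV2B was among them, a gene with 0 counts in every library. The right arm, which overlaps the full consensus, was in 14% of the 43 entries and in 20.5% of all. The cAMP response element was in SYN1 alone of the 30 genes (1.85% of all entries), and the E-box CACGTG in UNC13A alone (7.26% of all entries). The GC box GGGCGG was in 62.8% of the 43 entries and 45% of all. These are matches of letters and not measured binding sites.

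Of the 10 genes of the fusion core, 8 were higher in shTTC8, none was lower, and VAMP1 and VAMP2 were not called. The share called was 80%, against 31.9% of all genes tested. The median log2 fold change was 0.37, and the summed level went from 537 ± 2.76 to 946 ± 16.0 CPM (SD, n = 2). Without CPLX2 the sum went from 296 ± 5.74 to 456 ± 1.46 CPM.

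SNAP25, which gives the SNARE bundle a pair of its helices, stood at 45.6 and 39.8 CPM in the shScb libraries and at 108.9 and 111 CPM in the shTTC8 libraries. Both shTTC8 libraries lay well above both shScb libraries. The gene (ENSG00000132639, chromosome 20, 10218830 to 10307418, plus strand, GRCh38) rose by 1.37 on the log2 scale (SE 0.07, adjusted p = 8.97e-09 by edgeR), the largest change of the fusion core. STX1A, the plasma membrane syntaxin (ENSG00000106089, chromosome 7), stood at 17.1 and 16.5 CPM in shScb and 32.8 and 31.5 CPM in shTTC8. It rose by 0.94 (SE 0.09, adjusted p = 1.87e-06 by edgeR). Because 17.9% of its exonic length is shared with BUD23 on the opposite strand, and the library kit does not mark strand, its value is uncertain. BUD23 had 355% of its counts and a log2 fold change of 0.34.

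The vesicle SNAREs gave smaller values. VAMP2, the main synaptobrevin of neurons, was at 21.8 and 18.5 CPM in shScb and 23.3 and 20.3 CPM in shTTC8, so the groups overlapped (log2 fold change 0.11, SE 0.11, adjusted p = 0.472 by edgeR). VAMP1, its close relative, was at 5.42 and 5.57 against 6.74 and 6.06 CPM and was not called either (log2 fold change 0.22, SE 0.16). It shares 9.47% of its exonic length with TAPBPL, which had 118% of its counts. Of the 3 proteins of the bundle, then, the plasma membrane pair was called higher and the vesicle partner was not. The differences between these fold changes were not tested.

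Complexins, the small helical proteins that bind the assembled bundle, went both ways. CPLX2 (ENSG00000145920, chromosome 5) stood at 235 and 247 CPM in shScb and 501 and 480 CPM in shTTC8, and rose by 1.03 (SE 0.06, adjusted p = 2.26e-08 by edgeR). CPLX1 (ENSG00000168993, chromosome 4) stood at 44.4 and 55.9 CPM against 79.2 and 79.9 CPM and rose by 0.67 (SE 0.10, adjusted p = 5.54e-04 by edgeR). For both genes each shTTC8 library exceeded each shScb library. CPLX3, a complexin known from retina and counted here with the further exocytosis genes, fell from 12.2 and 12.8 CPM to 7.59 and 8.26 CPM (log2 fold change -0.66, SE 0.12, adjusted p = 8.83e-04 by edgeR), and CPLX4 had 0 counts. Nearly all of the exonic length of CPLX3 (99.7%) is shared with a processed transcript that had 0.41% of its counts. Per kilobase of exon, the scale used here to compare genes, CPLX1 and CPLX2 together went from 51.5 and 57.9 in shScb to 103.3 and 100.7 CPM per kb in shTTC8. CPLX2 made up 64.3% and 60.1% of that sum in shScb and 68.3% and 67.2% in shTTC8.

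The genes of the fusion core that recycle or guard the SNAREs rose by at most 0.38 on the log2 scale. Other SNAP adaptor genes were counted with the further exocytosis genes. Of these, NAPA rose by 0.555 (SE 0.07), from 43.4 and 47.8 CPM in shScb to 68.7 and 65.4 CPM in shTTC8. NAPG was not called (log2 fold change -0.09, SE 0.12). DNAJC5, the cysteine string protein that chaperones SNAP25, was at 93.2 and 91.2 CPM in shScb and 119 and 117 CPM in shTTC8 (log2 fold change 0.36, SE 0.06). STXBP5, tomosyn, which occupies syntaxin and restrains fusion, rose by 0.38 (SE 0.09), and NAPB, the neuronal beta-SNAP adaptor of NSF, by 0.34 (SE 0.09). NSF, the ATPase that takes the bundle apart, was at 16.5 and 13.7 CPM in shScb and 17.8 and 19.7 CPM in shTTC8. The call on its log2 fold change of 0.31 (SE 0.11, adjusted p = 0.0464 by edgeR) was lost in 6 alternatives. Without shScb replicate 2 the value was 0.18 (adjusted p = 0.261 by edgeR), without shTTC8 replicate 1 it was 0.38 (0.0645), and without shTTC8 replicate 2 it was 0.24 (0.251). It was 0.30 with DESeq2 (adjusted p = 0.134), 0.32 with limma-voom (0.0676) and 0.29 with no low-count filter (0.151). NSF also has a near-identical pseudogene, NSFP1, with 125 to 239 counts per library, so it is uncertain. NAPB was no longer called when shTTC8 replicate 1 was left out (adjusted p = 0.12 by edgeR).

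**Figure D3:**
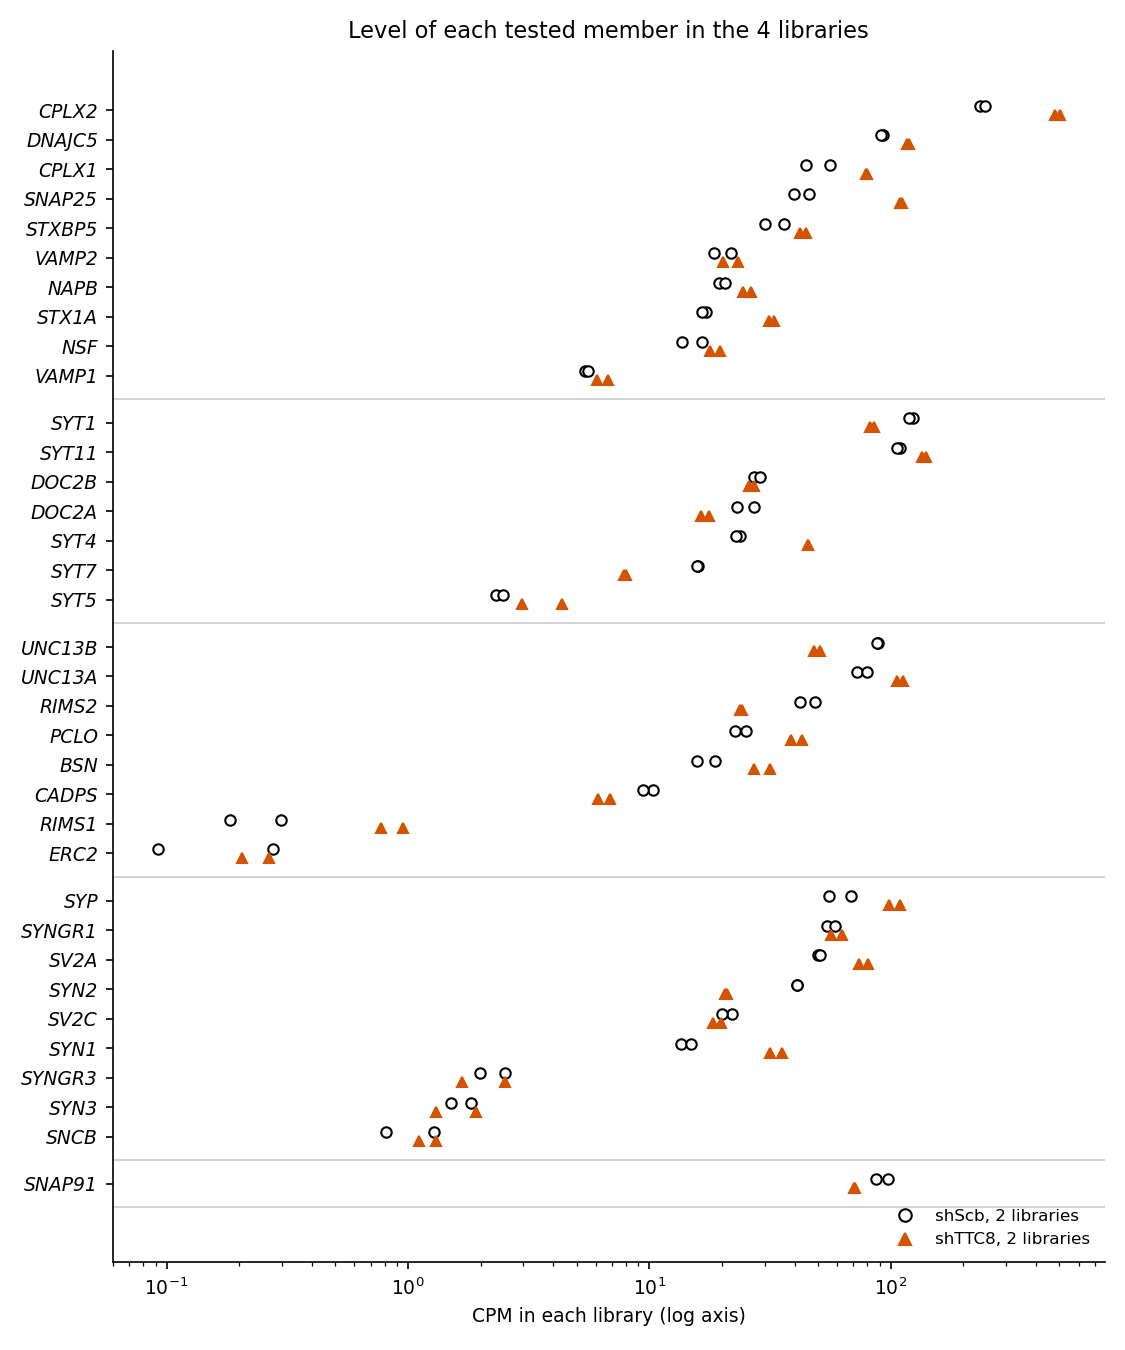
CPM of each tested gene in each of the 4 libraries on a log axis, ordered by role (grey lines) and by level; open circles are shScb and triangles are shTTC8, 2 libraries each. SNAP25, SYN1 and CPLX2 have both triangles to the right of both circles, and SYN2, UNC13B and RIMS2 to the left.

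The 7 synaptotagmin and DOC2 genes moved both ways, 2 being higher and 3 lower in shTTC8, with a median log2 fold change of -0.08. The share called was 71.4%, against 31.9% of all genes tested. SYT1, the fast sensor of synchronous release, fell from 123 and 119 CPM in shScb to 85.1 and 81.8 CPM in shTTC8 (log2 fold change -0.54, SE 0.06, adjusted p = 1.04e-05 by edgeR). SYT7, a slower high-affinity sensor that also acts in granule exocytosis, fell from 15.9 and 15.8 CPM to 7.82 and 7.97 CPM (log2 fold change -1.002, SE 0.11, adjusted p = 1.04e-05 by edgeR). Each of these genes was lower in both shTTC8 libraries than in either control.

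The other called synaptotagmins of the 39 genes were higher. SYT4, found on dense-core granules, rose from 23.6 and 22.8 CPM to 45.5 and 45.4 CPM (log2 fold change 0.97, SE 0.08, adjusted p = 5.81e-07 by edgeR). SYT11, its closest relative, rose from 109.5 and 106 CPM to 135 and 141 CPM (log2 fold change 0.36, SE 0.06). SYT5 was low, at 2.31 and 2.48 CPM against 4.35 and 2.97 CPM, and its difference missed the threshold (log2 fold change 0.61, SE 0.24, adjusted p = 0.065 by edgeR). It was called when shTTC8 replicate 2 was left out (adjusted p = 0.0228). Per kilobase of exon, SYT1 made up 39.3% and 39.2% of the 5 synaptotagmins in shScb and 25.6% and 24.4% in shTTC8. The share of SYT4 went from 11.0% in both controls to 20.0% and 19.9%. Their summed level moved little, from 48.3 and 46.8 to 51.2 and 51.6 CPM per kb.

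The DOC2 proteins are soluble high-affinity calcium sensors linked to spontaneous release. DOC2A fell from 23.0 and 27.1 to 17.7 and 16.3 CPM (log2 fold change -0.56, SE 0.10, adjusted p = 7.91e-04 by edgeR). It shares 4.44% of its exonic length with INO80E, which had 341% of its counts and a log2 fold change of 0.23, opposite in sign. DOC2B was at 27.2 and 28.7 CPM against 25.8 and 27.0 CPM without a call (log2 fold change -0.08, SE 0.09).

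Among the priming and active zone genes, 8 of 10 were tested, of which 4 were higher, 3 lower and 1 not called. The share called was 87.5%, against 31.9% of all genes tested. UNC13 proteins (Munc13) open syntaxin for assembly and make vesicles ready to fuse. UNC13A (ENSG00000130477, chromosome 19) rose from 72.4 and 79.5 CPM to 112.7 and 106 CPM (log2 fold change 0.53, SE 0.07, adjusted p = 3.31e-05 by edgeR). UNC13B (ENSG00000198722, chromosome 9) fell from 88.6 and 88.1 CPM to 50.9 and 47.9 CPM (log2 fold change -0.84, SE 0.07, adjusted p = 3.56e-07 by edgeR). These paralogues therefore moved in opposite directions with no overlap between the groups for either. UNC13C had 0 counts in 3 libraries and 6 counts in shTTC8 replicate 2, and was not tested. Per kilobase of exon, UNC13A made up 56.7% and 59.1% of the family in shScb and 78.0% and 77.9% in shTTC8, at family sums of 11.4 and 12.0 against 12.9 and 12.2 CPM per kb. In CPM, UNC13B exceeded UNC13A in both shScb libraries, so its smaller share there depends on exon length.

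RIM proteins bind RAB3 on the vesicle and gather calcium channels at the release site. RIMS2 fell from 48.5 and 41.9 CPM to 23.8 and 24.2 CPM (log2 fold change -0.91, SE 0.09, adjusted p = 2.89e-06 by edgeR). RIMS1 had only 15 and 10 counts in shScb and 37 and 32 counts in shTTC8. Its log2 fold change of 1.84 (SE 0.48, adjusted p = 0.0091 by edgeR) lost its call without shTTC8 replicate 1 (adjusted p = 0.067) and with DESeq2 (0.0564). RIMS1 made up at most 4.09% of the per-kilobase sum of RIMS1 and RIMS2. The sum itself was 3.59 and 3.09 CPM per kb in shScb and 1.82 and 1.84 in shTTC8. The short RIM proteins, counted with the further exocytosis genes, had higher levels per kilobase. RIMS3 fell from 49.3 to 34.7 CPM per kb (log2 fold change -0.51, SE 0.06), and RIMS4 was at 7.42 and 8.35 CPM per kb with no call.

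CADPS (CAPS1), which primes dense-core granules, fell from 10.4 and 9.38 CPM to 6.12 and 6.88 CPM (log2 fold change -0.60, SE 0.14, adjusted p = 0.0044 by edgeR). Its paralogue CADPS2 had 13 and 11 counts in shScb and none in shTTC8. Its mean level in shScb was 3.07 times a floor of 3 counts per shTTC8 library, with counting error in shScb left out. CADPS2 did not pass the low-count filter and was not tested. The giant scaffolds of the active zone rose side by side. BSN, bassoon, went from 15.7 and 18.7 CPM to 31.5 and 27.0 CPM (log2 fold change 0.76, SE 0.11), and PCLO, piccolo, from 25.0 and 22.6 CPM to 42.8 and 38.8 CPM (log2 fold change 0.78, SE 0.09). ERC2, another scaffold, had 5 to 14 counts per library and was not called.

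Of the 10 genes for vesicle membrane and vesicle-bound proteins, 9 were tested, with 3 higher, 1 lower and 5 not called. The share called was 44.4%, against 31.9% of all genes tested. The synapsins tether vesicles to each other and to actin. SYN1 (ENSG00000008056, chromosome X, 47571898 to 47619943, minus strand, GRCh38), whose RE1-bearing promoter is printed above, rose from 13.5 and 14.9 CPM to 35.6 and 31.5 CPM (log2 fold change 1.24, SE 0.10, adjusted p = 3.40e-07 by edgeR). SYN2 (ENSG00000157152, chromosome 3) fell from 40.8 and 41.0 CPM to 20.9 and 20.6 CPM (log2 fold change -0.98, SE 0.08, adjusted p = 6.46e-07 by edgeR). The predominant synapsin transcript per kilobase thus differed between the groups. SYN1 was 31.9% and 34.3% of the family in shScb and 70.4% and 67.5% in shTTC8, and SYN2 was 65.1% and 63.3% against 27.8% and 29.6%. Family sums were 11.0 and 11.4 CPM per kb in shScb and 13.2 and 12.2 in shTTC8. SYN3 was at 1.31 to 1.91 CPM in the 4 libraries and was not called. SYN1 shares 23 exonic bases (0.602% of its exonic length) with ARAF, which had 175% of its counts and a log2 fold change of 0.27. With 2 libraries a group, an exact two-sided permutation test of these shares cannot give a p below 0.333, so the shares are descriptions.

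**Figure D4:**
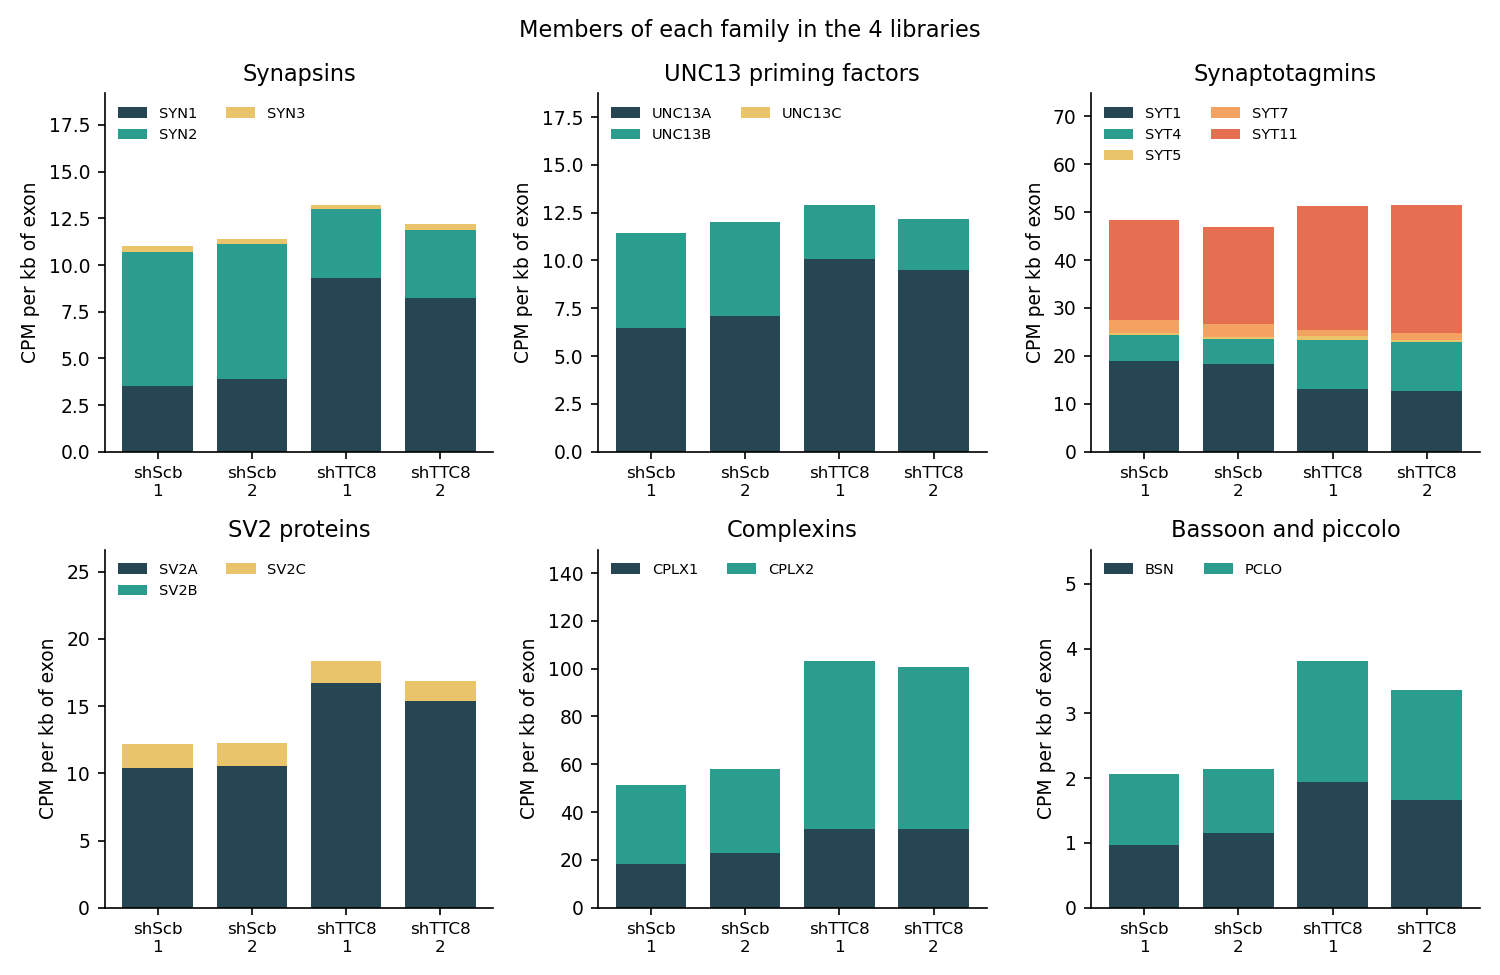
CPM per kilobase of exon in each of the 4 libraries for 6 families, stacked by paralogue (bars from 0). Synapsins, UNC13 factors and synaptotagmins keep similar totals while SYN1, UNC13A and SYT4 take larger parts in shTTC8; complexins, SV2 proteins and the bassoon and piccolo pair have higher totals.

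SYP, synaptophysin, the abundant vesicle membrane protein used as a neuroendocrine marker, rose from 55.4 and 68.5 CPM to 109.4 and 98.0 CPM (log2 fold change 0.74, SE 0.11, adjusted p = 0.0014 by edgeR). SV2A, a vesicle glycoprotein and the target of levetiracetam, rose from 50.1 and 51 CPM to 80.7 and 74.1 CPM (log2 fold change 0.61, SE 0.07, adjusted p = 1.12e-05 by edgeR). For SV2C the levels were 21.9 and 20.0 against 19.7 and 18.3 CPM, with no call (log2 fold change -0.14, SE 0.10). SV2B had 0 counts in all 4 libraries, which allows up to 0.0772 CPM in the shallowest of them (3 counts, counting error only). SYNGR1, synaptogyrin-1, overlapped between groups at 54.6 and 58.7 against 63.0 and 56.7 CPM. SYNGR3 and SNCB, beta-synuclein, stood between 0.811 and 2.53 CPM in all libraries and were not called.

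The endocytic adaptors retrieve vesicle membrane after fusion. SNAP91 (AP180), which sizes clathrin coats, fell from 97.7 and 87.0 CPM to 71.2 and 70.5 CPM (log2 fold change -0.38, SE 0.07, adjusted p = 6.86e-04 by edgeR). AMPH, amphiphysin, had 6 and 2 counts in shScb and none in shTTC8, and was not tested.

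Ranked by CPM per kilobase of exon, CPLX2 came first in both groups, at 33.9 ± 1.2 in shScb and 69.1 ± 2.05 in shTTC8 (SD, n = 2). In shScb it was followed by CPLX1 (20.7 ± 3.34), SYT11 (20.6 ± 0.478) and SYT1 (18.7 ± 0.441), of which CPLX1 did not separate from the other two. In shTTC8 CPLX1 (32.9 ± 0.181) and SNAP25 (32.8 ± 0.441) did not differ beyond their spread. SNAP25 held rank 7 in shScb and rank 3 in shTTC8. SYN1 went from rank 20 to 12, SYN2 from rank 11 to 20, and SYT1 from rank 4 to 8.

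Other genes of the same pathway were counted from lists that hold none of the 39. Of 48 tested further genes of regulated exocytosis, CPLX3 and RIMS3 included, 11 were higher and 7 lower (37.5%, median log2 fold change 0.07). Over all genes tested the share called was 31.9%. SYT9, a calcium sensor of granule release, rose by 1.30 (SE 0.11), and SCAMP5 and TPRG1L, which are vesicle proteins, rose by 0.70 (SE 0.06) and 0.91 (SE 0.09). SYPL1, the widely expressed relative of synaptophysin, fell from 53.9 to 26.8 CPM (log2 fold change -1.01, SE 0.08). SYT9 and SCAMP5 share exonic bases with genes on the opposite strand, SYT9-AS1 (2.56% of its exonic length, log2 fold change 0.83) and RPP25 (5.05%, -0.59), so both are uncertain. Of 30 tested genes of vesicle endocytosis and recycling, 9 were higher and 7 lower (53.3%), with a median of 0.06. The 4 with the smallest p were the AP-2 subunit AP2A1 (0.47, SE 0.08) and the clathrin adaptors PICALM (-0.40, SE 0.07), EPN2 (-0.42, SE 0.07) and STON1 (-1.02, SE 0.19). STON1 shares 29.1% of its exonic length with a readthrough gene, and AP2A1 shares 2.8% with FUZ on the opposite strand. Without shTTC8 replicate 1 and without shTTC8 replicate 2 alike, 4 were higher and 3 lower.

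Vesicular transmitter transporters load the vesicles. Of 6 tested, 3 were higher and none lower (50% called, against 31.9% of all genes tested). SLC18B1 rose by 0.34 (SE 0.09), the monoamine transporter SLC18A1 by 0.33 (SE 0.11) and the acetylcholine transporter SLC18A3 by 0.50 (SE 0.17). Only 1 was called without shScb replicate 1, with DESeq2 or with no low-count filter. Glutamate and GABA transporters (SLC17A6, SLC17A7, SLC17A8 and SLC32A1) did not pass the low-count filter. Cargo of dense-core granules was higher in 9 and lower in 2 of 12 tested genes (91.7% called, median 0.61). Its summed level went from 2848 ± 88.1 to 4274 ± 43.5 CPM (SD, n = 2). Of this, CHGB alone went from a mean of 554 CPM in shScb to 1477 CPM in shTTC8, and no sum without it was taken. The 2 lower genes were CHGA and PAM. CHGA fell from a mean of 710 CPM in shScb to 517 CPM in shTTC8 (log2 fold change -0.46, SE 0.07). PAM fell from 120 to 90.6 CPM (log2 fold change -0.41, SE 0.07).

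Constitutive exocytosis, which every cell uses, was counted as well. Of 22 tested genes 1 was higher and 7 were lower, with a median of -0.03. The share called was 36.4%, near the 31.9% of all genes tested. SNAP23, the widely expressed counterpart of SNAP25, fell from 42.3 to 23.4 CPM (log2 fold change -0.85, SE 0.09, adjusted p = 7.09e-06 by edgeR). VAMP7, a SNARE of lysosomal and surface traffic, fell from 15.3 to 8.10 CPM (log2 fold change -0.91, SE 0.12). The exocyst subunit EXOC4 changed by -0.43 (SE 0.06), while the SNARE YKT6 rose by 0.40 (SE 0.06). The difference between this list and the 39 genes was not tested. Leaving out shScb replicate 1 gave 3 higher, and leaving out shScb replicate 2 or shTTC8 replicate 2 gave 2.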

How the data were processed

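RNA from 4 samples was sequenced with the Illumina TruSeq RNA kit, per the labels' protocols. HISAT2 2.2.0 and hg38 are named in the submitters' processing notes; the sources used here name no read counter and no gene annotation. The authors deposited raw counts, whole numbers for each gene, with no normalization. Symbols came from a gene name table and GENCODE 29 (GRCh38), which also gave positions and the exon lengths behind CPM per kilobase. These lengths join the exons of all annotated transcripts of a gene, so shares, ratios and ranks per kilobase depend on them. In R 4.3.3, edgeR 4.0.16 was run with its default low-count filter, TMM scaling and the robust, two-sided quasi-likelihood test. P-values were adjusted by Benjamini-Hochberg across the 19610 genes tested. CPM use TMM-scaled library sizes, and each SE was derived as the fold change on the log2 scale divided by the root of F. The fit was tested on simulated data. The genes and lists were chosen with earlier results of these data known. All 39 genes could be named, with up to 4 called genes by smallest p from each other list. Some relatives of the 39 genes and the lower granule cargo genes were named as well. Alternatives were other scalings and filters, DESeq2 1.42.0, limma-voom (limma 3.58.1), a replicate block, each library left out, equal depth, and a GC and length offset. Replicates were not the same library counted again (chi-square per degree of freedom 11.4 in shScb and 6.4 in shTTC8). A promoter sequence that also holds the left arm of RE1 is not reported here.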

Additional observations from a re-analysis of the deposited data

How the results depend on the processing

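Of the 25 called vesicle genes, 22 were called in all 13 alternatives, and none of the 25 changed direction in any. NSF, NAPB and RIMS1 lost their calls in some, and SYT5 gained one in some. Over the alternatives that leave out a library, 14 to 17 of the genes were higher and 8 to 9 lower, and with DESeq2 15 and 8. Without STX1A, VAMP1, SYN1 and DOC2A, which share exonic bases with a gene of more counts than their own, and NSF, which has a near-identical copy, 14 were higher and 7 lower. Some genes that were not called turned direction. Leaving out a library gave log2 fold changes of -0.0027 to 0.24 for VAMP2, -0.23 to 1.33 for ERC2, -0.34 to 0.20 for SYN3, -0.0029 to 0.16 for SYNGR1, -0.43 to 0.16 for SYNGR3 and -0.0911 to 0.58 for SNCB, and the GC and length offset gave -0.0354 for SYNGR1. In endocytosis and recycling, leaving out a library gave 4 to 7 higher and 3 to 8 lower; no low-count filter gave 4 higher and library size alone 4 lower. Transmitter transporters were higher in 1 to 3 cases when a library was left out, and in 1 with no low-count filter or DESeq2. In constitutive exocytosis 1 to 3 were higher when a library was left out, 2 with library size alone and 4 with the GC and length offset. Over all genes 1880 to 3395 were higher when a library was left out, the fewest without shTTC8 replicate 1. The cause of these shifts was not tested. The labels tie same-numbered replicates by nothing but a number, and their deviations correlated at 0.0317. Whether they shared a culture or a preparation cannot be told from this. With the replicate block 17 vesicle genes were higher and 8 lower, the counts found with no block.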

Other observations

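Ratios between neuronal vesicle genes and their widely expressed relatives were looked at after the values had been seen, and are given as descriptions. Per kilobase of exon, SNAP25 stood at 1.79 and 1.75 times SNAP23 in the shScb libraries and at 8.67 and 7.88 times SNAP23 in the shTTC8 libraries. For synaptophysin, the ratio of SYP to SYPL1 was 0.526 and 0.721 in shScb and 2.17 and 1.98 in shTTC8. Which of the pair was the more abundant in shScb depends on the division by exon length. In CPM, the shScb libraries had 55.4 and 68.5 for SYP and 56.7 and 51.1 for SYPL1. Per kilobase again, VAMP2 was 1.13 and 1.02 times VAMP7 in shScb and 2.33 and 2.06 times VAMP7 in shTTC8. Against VAMP3, another widely expressed synaptobrevin, VAMP2 stood at 0.215 and 0.194 in shScb and 0.223 and 0.183 in shTTC8, and the groups overlapped. SNAP23, SYPL1 and VAMP7 were each called lower in shTTC8, which raises the ratios to them, and VAMP2 itself was not called. SNAP29 and SNAP47, of the constitutive list, were not called (log2 fold changes 0.12, SE 0.08, and 0.02, SE 0.08). No ratio to them was taken. SNAP23, SNAP29 and SNAP47 all share exonic bases with genes on the opposite strand.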
